A study of Mus musculus with 2 samples.

Results

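Elastic fibre and microfibril genes were compared between 2 stable transfectant clones of the mouse osteosarcoma line LM8, which is known for spreading to the lung. The set held 10 genes of the 12393 that had a probe set annotated to a single symbol, and it was chosen by gene identity: elastin (Eln), the fibulins Fbln1, Fbln2 and Fbln5, the fibrillins Fbn1 and Fbn2, the microfibril-associated proteins Mfap2, Mfap4 and Mfap5, and Emilin1. The hPHD4 clone carried a full-length human PHD4 cDNA in pcDNA3.1, and the control clone carried the empty vector. Both were kept under G418 at 0.5 mg/ml, each is a single clone of the line, and 1 Affymetrix array was run for each from 5 µg of total RNA. PHD4 is a transmembrane prolyl hydroxylase of the endoplasmic reticulum and a relative of the oxygen sensors that act on hypoxia-inducible factor (HIF). The question was how expression in cells carrying human PHD4 differed from that in control cells. With 1 array per clone no replicate error or test could be had. A difference between clones cannot be told apart from a difference between cultures, labelling reactions or arrays. With 1 clone per construct, an effect of the introduced gene cannot be told apart from other differences between the clones.

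Elastic fibres give tissues their recoil. They are laid down when soluble tropoelastin, the product of Eln, is deposited on a scaffold of microfibrils and cross-linked by lysyl oxidases. Fibrillin-1 and fibrillin-2 form the microfibril backbone, MAGP-1 (Mfap2), MAGP-2 (Mfap5) and Mfap4 associate with it, and fibulin-5 and Emilin1 sit at the interface where elastin meets the microfibril. Microfibrils also hold latent TGF-beta in the matrix through the latent TGF-beta binding proteins.

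Of the 3 members with a signal above background in both clones, Fbln5 and Emilin1 were lower in the hPHD4 clone and Eln was higher. Fbln5 was 3.05-fold lower, Emilin1 was 1.81-fold lower on its brighter probe set, and Eln was 1.92-fold higher. Mfap2 was above background in the control clone alone and was lower by a factor of at least 1.67. The other members were dim or had no usable probe set.

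The promoters of the members that were lower in the hPHD4 clone are shown so that the start regions behind the values of Fbln5, Emilin1 and Mfap2 can be read, searched for the HIF core letters because the introduced enzyme belongs to a family that acts on HIF. Sequences are from RefSeq, GRCm38.p6, 250 bases before to 50 after an annotated start. Where a gene had more than 1 start, the one farthest upstream is printed. Capitals mark the letters ACGTG or GCGTG on either strand, the core of the HIF binding element, and the AP-1 letters TGANTCA.
Fbln5, chr12:101819070-101819369, minus strand: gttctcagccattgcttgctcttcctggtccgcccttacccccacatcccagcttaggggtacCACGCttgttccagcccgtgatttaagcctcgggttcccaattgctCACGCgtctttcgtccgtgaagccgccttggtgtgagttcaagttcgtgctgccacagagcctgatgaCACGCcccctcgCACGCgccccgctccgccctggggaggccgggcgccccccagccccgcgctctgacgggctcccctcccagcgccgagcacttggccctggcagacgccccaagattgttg
Emilin1, chr5:30913536-30913835, plus strand: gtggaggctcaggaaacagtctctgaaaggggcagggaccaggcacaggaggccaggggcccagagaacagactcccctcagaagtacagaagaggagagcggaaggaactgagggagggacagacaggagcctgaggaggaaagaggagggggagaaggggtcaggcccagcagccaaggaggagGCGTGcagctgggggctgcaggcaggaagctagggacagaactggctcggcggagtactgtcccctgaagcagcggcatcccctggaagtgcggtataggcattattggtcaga
Mfap2, chr4:141010174-141010473, plus strand: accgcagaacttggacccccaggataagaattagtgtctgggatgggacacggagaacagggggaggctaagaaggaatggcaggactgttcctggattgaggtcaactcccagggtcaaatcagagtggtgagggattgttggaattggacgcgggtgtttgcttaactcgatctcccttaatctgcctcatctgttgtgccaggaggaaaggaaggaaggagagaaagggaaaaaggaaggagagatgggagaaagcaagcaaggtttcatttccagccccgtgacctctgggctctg
The Fbln5 window held 4 matches to GCGTG and 0 to ACGTG, while its other annotated start held 0 of either. The Emilin1 window held 1 match to GCGTG. The Mfap2 window shown held 0, and the window at its other start, which overlaps it, held 1. None of these windows of Fbln5, Emilin1 and Mfap2 held TGANTCA. Over all 32851 promoter windows of this length, 32.4% held GCGTG, 19.6% held ACGTG and 7.81% held TGANTCA, so a match is common. Windows were searched for 6 members, the others being Fbln1, Fbln2 and Fbn1. Eln, Mfap4 and Mfap5 had no window under their symbols. Fbn2 was left out of the search, so nothing is said here about its promoter. Fbln1, whose 2 overlapping windows share their matches, held 3 matches to ACGTG in each, 2 of them the opposite strands of 1 palindrome, and 1 to GCGTG. Fbln2 and Fbn1 held 0 of both. A match is a run of letters and not a binding site, and no binding was measured.

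Signals are log2 values from MAS5, the Affymetrix algorithm that gives 1 signal per probe set, and linear signals are powers of 2 of these. Median signals over all probe sets other than the array's controls were 135 for the hPHD4 clone and 123 for the control clone. A floor at the 40th percentile of each array stood for background, at linear signals of 81.1 for the hPHD4 clone and 67.8 for the control clone, and 7452 genes had a probe set above it in both. Log2 ratios from different probe sets of a gene scattered with an SD of 0.35, which covers probe set error only. The osteoblast genes Sp7, Alpl and Dlx5 were well above the floor in both clones, with linear signals between 1803 and 3712. The array's annotation gave 0 probe sets to the introduced human gene, so the clone labels were not checked against it.

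The annotation gave 13 probe sets to 9 members alone, and no probe set to Fbn1 alone, so fibrillin-1 has no value here. Of the 13 probe sets, 3 lay above the floor in both clones, 4 on the control array alone, 0 on the hPHD4 array alone and 6 on neither. Thus 6 members had a signal above the floor in the control clone and 3 of them also did so in the hPHD4 clone. Most of the set was thus at or near background on these arrays, and the log2 signals of the members ran from 1.52 to 9.34. Over the whole array, of 22690 probe sets with 64 controls among them, 8096 other than controls lay under both floors. Floors at the same percentile leave about equal numbers of all these probe sets above the floor on either array alone. The share of all probe sets above the floor on the control array alone was not computed, so the member counts have no such background beside them. With 13 probe sets, the member counts are a description. In bulk RNA, fewer cells of a kind and less RNA per cell cannot be told apart.

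**Figure D1:**
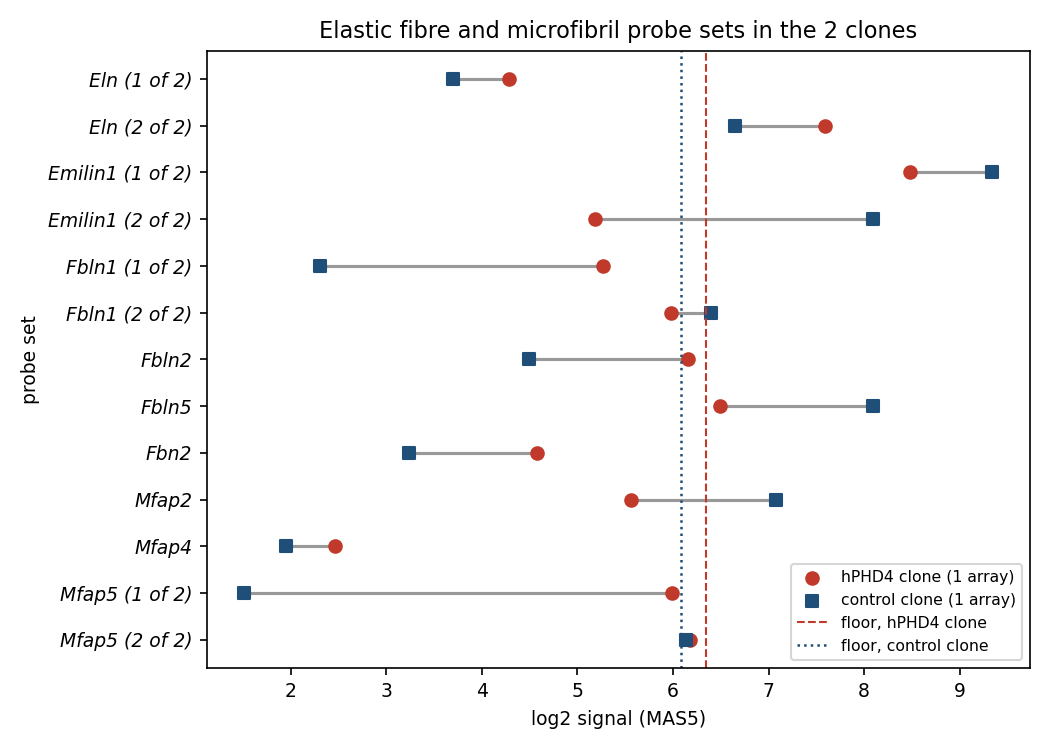
Log2 signals of the 13 probe sets of 9 members in the hPHD4 clone (circles) and the control clone (squares), 1 array each, with a line joining the clones and vertical lines at the floor of each array. The probe sets of Fbln5, Emilin1 and Mfap2 lie higher in the control clone, the measured probe set of Eln lies higher in the hPHD4 clone, and 6 probe sets lie under both floors.

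Eln (Entrez Gene 13717) encodes tropoelastin, the rubber-like core of the fibre. Its measured probe set gave a linear signal of 193 in the hPHD4 clone against 100.5 in the control clone, a log2 ratio of 0.94. Its other probe set, at 19.5 and 13.0, was under the floor in both clones and had a ratio of 0.59 in the same direction. Eln ranked 177th from the highest of all measured genes. Its ratio was less unusual for its brightness: 92.2% of the 1289 probe sets within 0.25 log2 units of its mean signal lay below it, and their SD was 0.62. The control signal of Eln was close to the floor.

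Fbln5 (Entrez Gene 23876) encodes fibulin-5, a calcium-binding protein with EGF-like domains that binds tropoelastin and cell-surface integrins and is required for assembly of normal elastic fibres. Its only probe set gave 89.9 in the hPHD4 clone against 274 in the control clone, a log2 ratio of −1.61. It ranked 18th from the lowest of the 7452 measured genes. Of the 1320 probe sets of similar brightness, 0.61% had a lower ratio, and their SD was 0.59. Its signal in the hPHD4 clone lay close to the floor of 81.1.

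Emilin1 (Entrez Gene 100952) encodes a glycoprotein of the elastin and microfibril interface that also restrains processing of the TGF-beta precursor. Its brighter probe set gave 358 in the hPHD4 clone against 649 in the control clone, a log2 ratio of −0.86, and 1.3% of 1307 probe sets of similar brightness lay lower. The other probe set gave 36.5 and 273, so it passed the floor only on the control array, and the hPHD4 clone was at least 3.37-fold lower. The probe sets of Emilin1 agreed in direction and differed in size, at −0.86 and −2.91.

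Eln and Emilin1 lie on chromosome 5 and had ratios of opposite sign. Measured genes of chromosome 5 had a median log2 ratio of −0.19 over 491 genes. Fbln5 lies on chromosome 12, where the median was 0.06 over 246 genes, and Mfap2 on chromosome 4, where it was −0.07 over 473.

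**Figure D2:**
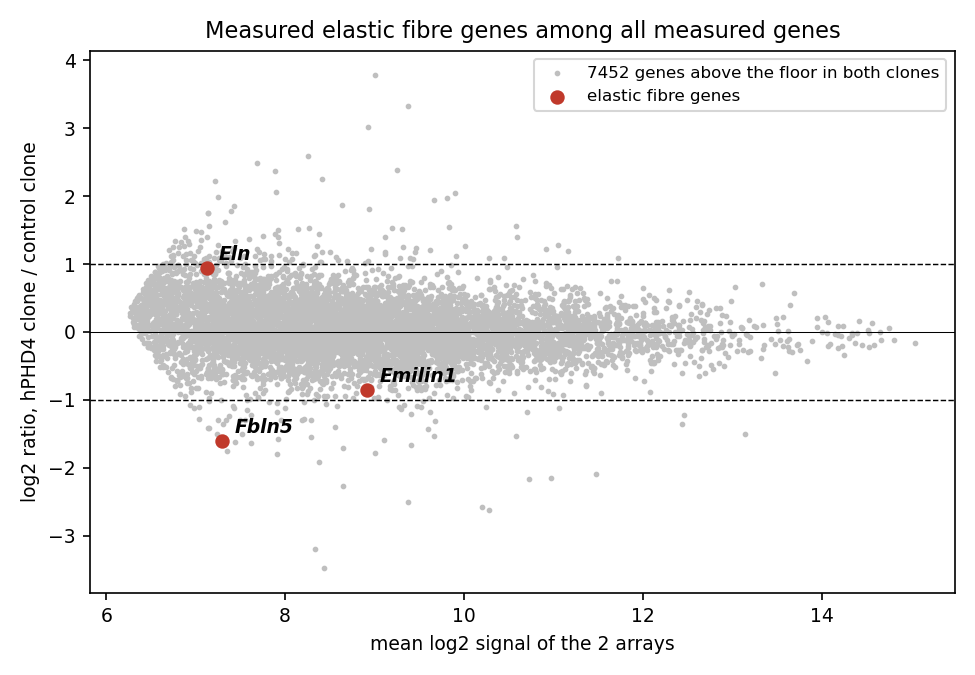
Log2 ratio of the hPHD4 clone over the control clone against the mean log2 signal of both arrays, for 7452 genes above the floor in both clones (grey) and the 3 measured elastic fibre genes (red), with dashed lines at 2-fold. Fbln5 lies past the 2-fold line at −1.61, Emilin1 and Eln lie inside it at −0.86 and 0.94, and the grey points spread more widely at low signals.

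Counted at a 2-fold threshold, 1 of the 3 measured members, Fbln5, was lower and 0 were higher, beside 0.98% lower and 1.89% higher among all measured genes. At a threshold of 1.5-fold, Fbln5 and Emilin1 were lower and Eln was higher, where 5.22% of all measured genes were lower and 8.94% higher. The median log2 ratio of the 3 was −0.86, beside 0.03 over all 7452. With the floor lowered to the 20th percentile of each array, 7 members were measured, of which 3 were past 2-fold lower (Fbln5, Emilin1 and Mfap2) and 1 past 2-fold higher (Fbln2), beside 1.96% lower and 6.29% higher over all 9613 genes then measured. A member had to exceed the floor in both clones to be counted, and 3 genes are too few for their median to describe the set of 10.

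The microfibril-associated proteins were measured poorly. Mfap2 (Entrez Gene 17150), encoding MAGP-1, a small glycoprotein that binds fibrillin and TGF-beta family growth factors, gave 47.3 in the hPHD4 clone against 135 in the control clone. The first of these is under the floor, so the difference is given as a bound, at least 1.67-fold lower. Mfap5, encoding the related MAGP-2, had 2 probe sets that disagreed. The first gave 63.5 and 2.86, both under the floor, and the second 72.5 and 70.3, a log2 ratio of 0.05. Neither of the Mfap5 probe sets was above the floor in the hPHD4 clone, so no fold is given. Mfap4, a fibrinogen-domain protein that binds elastin and fibrillin, gave 5.53 in the hPHD4 clone against 3.88 in the control clone.

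Among the other fibulins and fibrillins, no probe set was above the floor in the hPHD4 clone. Fbln1, encoding a fibulin found in elastic fibres and basement membranes, gave 63.2 and 84.2 on one probe set, at least 1.04-fold lower, and 38.5 and 4.96 on the other. The Fbln1 probe sets had opposite signs, at −0.41 and 2.96. Fbln2, whose product binds fibrillin and basement membrane proteins, gave 71.5 in the hPHD4 clone against 22.5 in the control clone. Fbn2, the fibrillin more typical of developing tissue, gave 24.0 and 9.46. Fbln2, Fbn2 and Mfap4 were thus under the floor in both clones, and their levels have no order between the clones.

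All 6 member probe sets under both floors had the higher number in the hPHD4 clone. Over all probe sets of the array under both floors, 8096 in number, 63.3% did so, with a median log2 ratio of 0.37 and a central 95% range from −2.81 to 3.60. The difference of 4.47 on the first Mfap5 probe set lay beyond that range, and those of the other 5, including 2.96 for Fbln1 and 1.67 for Fbln2, lay inside it.

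Genes that work with the fibre were described in 8 lists of 77 genes, of which 62 had a probe set of their own and 38 were measured. Of these 38, 3 reached 2-fold on the higher side and 1 on the lower side, which is 7.89% and 2.63% of them, beside 1.89% and 0.98% over all measured genes. Of the 38, 19 were above 0 and 19 below, and the median log2 ratio was 0.00. The lists were drawn up with earlier results known, so the shares are a description. In the list of fibulin, EMILIN and MFAP relatives, 4 of 12 genes had a probe set of their own and 1 was measured. This was Mfap3, 1.60-fold higher in the hPHD4 clone, with probe sets at log2 ratios of 0.66 and 0.70. The other 3 were under the floor in both clones.

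Lysyl oxidases cross-link tropoelastin and collagen. Of 5 genes in the list, 4 had a probe set of their own and 3 were measured. Among these 3, Loxl3 had the lowest log2 ratio, −0.70, with signals of 369 and 600.3, and Loxl4 the highest, 0.08. Lox itself, named here after its values were seen, gave 6236 and 4636 on its measured probe sets in the hPHD4 clone, against 9812 and 6792 in the control clone, and a mean ratio of −0.60. No lysyl oxidase passed 2-fold. Loxl1, which is tied most closely to elastin, was under the floor in both clones at 62.3 and 41.1.

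The latent TGF-beta binding proteins, close relatives of the fibrillins, and the TGF-beta ligands had 6 measured genes of 7, with a median of 0.24. Tgfb2 was 2.94-fold higher in the hPHD4 clone (log2 ratio 1.55). Both measured Tgfb2 probe sets went this way, at 202 and 291 in the hPHD4 clone against 86.7 and 78.7. Ltbp4, whose product works with fibulins in elastin assembly, had the lowest ratio of that list, −0.01. Ltbp1 was between them at 0.60. Adamtsl4 and Adamts10, genes of fibrillin microfibril formation, had ratios of 0.52 and 0.38. They were the only 2 measured of their list of 9, in which 3 genes had a probe set of their own.

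In the list of integrin subunits and the elastin receptor complex, 8 of 11 genes were measured, with a median of −0.05 and 0 past 2-fold in either direction. The range ran from Ctsa, the protective protein of the elastin receptor complex, at −0.53 to Glb1, whose splice product is the elastin-binding subunit, at 0.29. The fibulin-5 receptor subunits Itgav and Itgb5, named after their values were seen, lay at −0.01 and −0.05. Integrin beta 3 (Itgb3) was under the floor in both clones.

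Elastin-degrading proteases had 4 measured genes of 10. Ctsk, encoding cathepsin K, a strong elastase of bone-resorbing cells, was 2.12-fold higher in the hPHD4 clone at 202 and 95.3. Ctsl, encoding cathepsin L, had the lowest ratio, −0.53, at 2329 and 3374. The median of this list was −0.48. Mmp12, the macrophage elastase gene, was under the floor in both clones.

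The matrix partners were split. Dcn, encoding decorin, a proteoglycan that binds collagen and microfibrils, was 3.44-fold lower in the hPHD4 clone at 278 and 956. Fmod, encoding fibromodulin, was 2.93-fold higher on the mean of 6 probe sets, all above 0. Of 12 genes in the list, 5 were measured, with a median of 0.38. Vcan, encoding versican, which binds fibrillin and fibulins, was under the floor in the control clone and at least 2.23-fold higher with hPHD4, at 151 and 34.2 on its brightest probe set. Tnxb, Col16a1 and Nid2 passed the floor only in the control clone. They were lower in the hPHD4 clone by factors of at least 1.27, 1.13 and 1.02.

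Regulators linked to transcription of elastic fibre genes had 10 measured genes of 12 and a median of 0.09, with 5 above 0 and 5 below. Sp1, a general activator at GC-rich promoters, had the lowest ratio, −0.97, with both probe sets in the same direction at 262 and 519, and 83.4 and 162. Klf4 had the highest, 0.83, from probe sets at 0.24 and 1.42. Igf1, which raises elastin transcription in smooth muscle cells, passed the floor only on the hPHD4 array and was at least 3.20-fold higher, with its brightest probe set at 217 and 5.50. Igf1 and Vcan were named after their values were seen, as were Ltbp1, Loxl1, Itgb3, Mmp12, Tnxb, Col16a1 and Nid2 above.

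**Figure D3:**
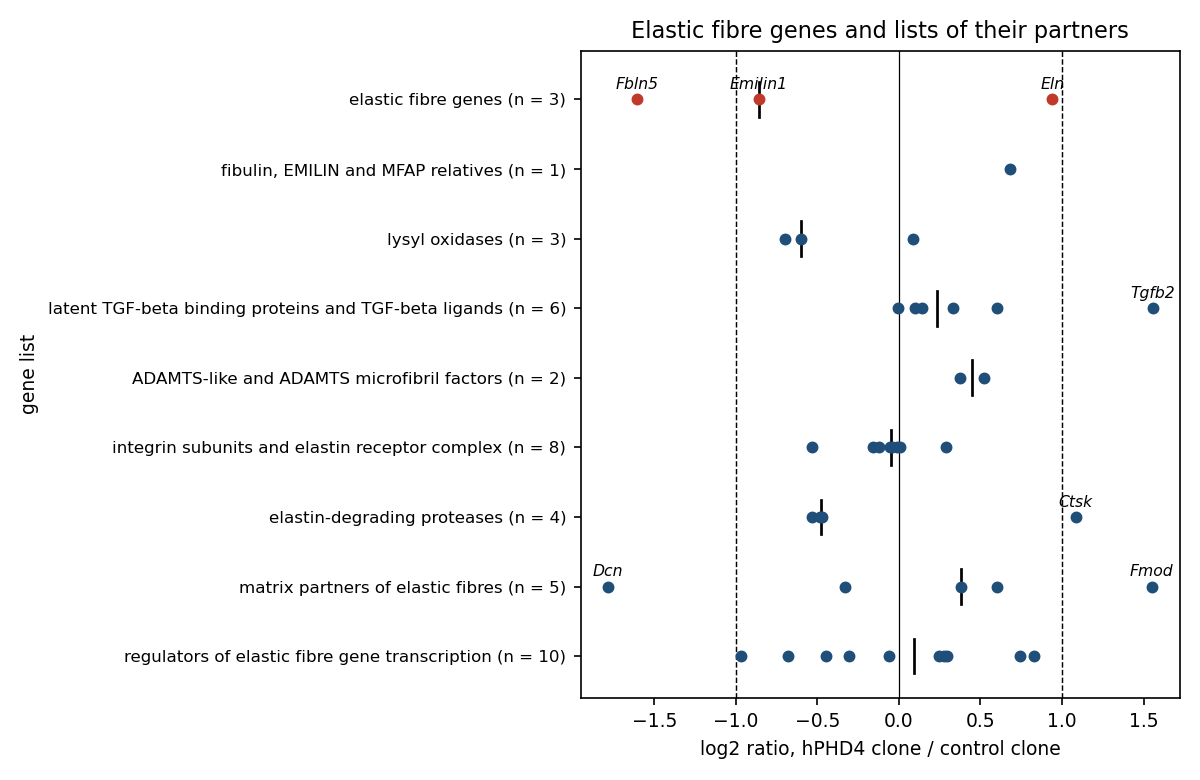
Log2 ratio of the hPHD4 clone over the control clone for the 3 measured elastic fibre genes (red) and the measured genes of 8 partner lists (blue), each point 1 gene, with a bar at the median of lists with more than 1 gene and dashed lines at 2-fold. Tgfb2, Ctsk and Fmod lie past 2-fold on the higher side and Dcn on the lower side, while all 8 integrin and elastin receptor genes lie between −0.53 and 0.29. Ltbp1 is in both the TGF-beta list and the matrix partner list.

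Markers of 7 cell types were read beside these values, and they lay in both directions. Among smooth muscle markers, 2 of 5 were measured. Acta2, smooth muscle actin, was 2.82-fold lower in the hPHD4 clone at 5385 and 15193, Des lay the other way at a ratio of 0.42, and Cnn1, calponin, was at least 2.04-fold lower. The summed linear signal of that list, 5668 in the hPHD4 clone against 15583 in the control clone, is nearly all from Acta2. Myh11, the defining smooth muscle myosin, was under the floor in both clones, as was Tagln at 18.4 and 33.2. Among fibroblast markers, 2 of 5 were measured, Pdgfra at −0.94 and Col1a2 at −0.43, and the summed signal, mostly from Col1a2, was 27210 in the hPHD4 clone against 36608 in the control clone.

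Osteoblast and chondrocyte markers had medians above 0. In the osteoblast list 5 of 8 genes had a probe set of their own, and all 5 were measured. Their median was 0.23 and their summed signals were 15618 and 15806. Ibsp, bone sialoprotein, was 2.13-fold higher in the hPHD4 clone while Col1a1 lay at −0.11. In the chondrocyte list 3 of 5 were measured, with a median of 0.57 and summed signals of 2976 and 1936. Col9a1 was 2.23-fold higher, Col2a1 lay at 0.57 and Sox9 at −0.29. Endothelial markers had 2 measured genes of 5, with a median of −0.25, leukocyte markers 2 of 5, with a median of 0.41, and epithelial markers 0 of 5. The measured markers with the sign of Fbln5 and Emilin1 were Acta2, Pdgfra, Col1a2, Col1a1, Sox9 and the endothelial gene Vwf. For Col1a1 this is the sign of the mean, and its 2 measured probe sets disagreed, at −0.61 and 0.39. Those with the sign of Eln were Des, Sp7, Alpl, Dlx5, Ibsp, Col9a1, Col2a1, the endothelial gene Kdr and the leukocyte genes Cd68 and Csf1r. By bounds, Cnn1 was lower in the hPHD4 clone, and the epithelial gene Krt8 and the leukocyte gene Cd3e were higher. The part of these markers in the result was not tested.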

How the data were processed

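The data were 1 array for each of 2 clones. Per the submitters' processing notes, the authors made the deposited log2 signals with MAS5. Its version was not given in the sources used here, nor were its settings. Log base and scaling were read from the values: as powers of 2, the trimmed means (2% off each end) were 500.2 on both arrays. Of 22690 probe sets, 64 were controls, 20380 had 1 symbol in the platform annotation, 691 several and 1555 none. Probe sets without exactly 1 symbol were left out. All 9 members with a probe set were found by gene number in a RefSeq gene table of GRCm38.p6.

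No further scaling was applied. A gene's value was its mean log2 ratio (hPHD4 over control) across the probe sets above the floor on both arrays. A probe set above the floor on 1 array alone gave a bound, its signal over the higher of the other array's floor and signal. Medians and counts at 2-fold were set beside those of all measured genes. Named genes were all members and, per partner list, genes past 2-fold and, where fewer than 2 were, the highest and lowest. Other partner genes and single markers were named after their values were seen. Members and lists were chosen with earlier results of these data known. MAS5 detection calls were not used here, and the number of arrays limits the precision. The steps were tested on simulated data, with 4-fold changes planted in genes measured here and noise in the ratio of SD 0.35. That noise was smaller than the SDs of 0.62 and 0.59 among probe sets as bright as those of Eln and Fbln5. The simulation therefore does not show how well such dim genes are called. Python 3.11.15, pandas 2.3.3, numpy 2.4.6 and statsmodels 0.14.6 (loess, span 0.3) were used. Alternatives covered scaling, floor, filter, probe set choice and fold threshold. Subtraction of chromosome medians was added after seeing the data.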

Additional observations from a re-analysis of the deposited data

How the results depend on the processing

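Fbln5 kept its direction in the 8 alternatives that gave it a value, with log2 ratios from −1.76 to −1.61. Under a 60th percentile floor it was not measured. Because Fbln5 had 1 probe set, the alternatives of floor, filter or probe set choice repeated −1.61 or left it out. Eln stayed above 0 in its 8 alternatives, from 0.47 to 1.13, and Emilin1 below 0 in its 9, from −1.88 to −0.67. Under a 20th percentile floor 7 members were measured, their median was −0.41, Emilin1 was at −1.88, 1 member was at least 2-fold higher (Fbln2, 1.67) and 3 lower (Fbln5, Emilin1 and Mfap2 at −1.52), where 6.29% and 1.96% of all measured genes were. At the 60th percentile Emilin1 alone was left and 0 members were at least 2-fold lower. With no filter and signals raised to 1 common floor, the median was 0.00, Eln was at 0.47, Emilin1 at −1.31, and 2 members were at least 2-fold lower. At a 1.5-fold threshold 1 member was higher and 2 lower. After subtraction of chromosome medians 1 member was at least 2-fold higher, Eln at 1.13. Shares over all genes were computed only for the processing used in the results above, the 1.5-fold threshold and the 20th percentile floor. Counts under every other alternative, including those left the same, have no background of their own beside them. The lower floor and the absence of a filter admit dim probe sets, and the higher floor removes them. Quantile normalization, median subtraction, the loess correction, the brightest probe set and removal of suffixed probe sets left each count the same, with 3 members measured. Each of these members had 1 measured probe set, without a suffix. Taking the brightest probe set or removing suffixed ones therefore could not change any of their values. No paired analysis was possible because each clone had 1 array. Low signal over background limits the values: 6 of 13 probe sets were under both floors.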
